A study of Mus musculus with 12 samples.

Results

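Talin-1, kindlin-3 and the small GTPases Rap1a and Rap1b, with the proteins that switch Rap1 on and link it to integrin tails, were followed at the RNA level while cultured B cells became plasmablasts, with and without Mzb1. The 10 genes were Tln1, Fermt3, Rap1a, Rap1b, Rasgrp2, Rapgef1, Apbb1ip, Rassf5, Vcl and Ilk. They were taken by symbol from the 24325 gene symbols deposited for each library, and the rule uses their names and no measured value. The names themselves were chosen with earlier results of these data known, so the choice was not blind to them. All 10 were found, and all 10 were among the 11069 symbols that passed the filter on low values.

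The ko cells came from Mzb1-/- Prdm1+/gfp mice and the wt cells from Mzb1+/+ Prdm1+/gfp mice, all of strain C57BL/6. Mzb1 encodes a co-chaperone of the endoplasmic reticulum, and the series title links it to Blimp1 and to the function of integrins with the beta1 chain. Every animal, wt included, carried 1 Prdm1 allele with a green fluorescent protein reporter, so Blimp1, the protein of Prdm1, could come from at most 1 unaltered allele. B cells were taken from the spleen with beads against B220 and kept for 4 days in medium holding lipopolysaccharide (LPS) at 25 µg/ml. They were then sorted into activated B cells (ActB, without CD138 and without the reporter), pre-plasmablasts (PrePB, without CD138, with the reporter) and plasmablasts (PB, with both). Each of the 6 groups held 2 libraries. The sex and age of the animals and the number of animals behind a culture are not given in the labels. The p-values therefore measure the spread between these libraries, which may be in part technical. In wt cells Xist was at 33.3 to 81.4 FPKM in replicate number 1 and at 0.0232 to 0.0321 in replicate number 2. The wt replicates thus differ in more than technical handling.

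Integrins on leukocytes rest in a bent form that binds ligand weakly. Signals from antigen or chemokine receptors load Rap1 with GTP through exchange factors. Rap1-GTP then acts through effectors that bring talin to the tail of the integrin beta chain, and kindlin binds the same tail at a second place. In B cells this switch governs adhesion and homing to lymphoid tissue, where plasma cells are held by integrins.

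5 promoters are shown because 4 of these genes fell together as plasmablasts formed and the fifth, Rapgef1, was an exchange factor that fell less than they did. Each is the 250 bases before the start of the gene in RefSeq, build GRCm38.p6, printed 5′ to 3′ on the gene's own strand. A promoter was found for 9 of the 10 genes, Rap1a being the other one, and Rasgrp2 is shown at the first of its 2 listed starts. Capitals mark a match to AGNGAAAG, the short core bound by Blimp1, or to the E-box CAGGTG bound by E proteins. Both strands were searched, so the Blimp1 core stands as CTTTCTCT where it lies on the opposite strand.
Rasgrp2 (chr19:6399625-6399874, plus strand): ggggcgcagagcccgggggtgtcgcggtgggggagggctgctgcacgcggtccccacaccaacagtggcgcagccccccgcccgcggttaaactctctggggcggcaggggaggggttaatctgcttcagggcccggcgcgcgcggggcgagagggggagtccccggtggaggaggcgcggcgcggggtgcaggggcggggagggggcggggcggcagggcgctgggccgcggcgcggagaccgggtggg
Rapgef1 (chr2:29619470-29619719, plus strand): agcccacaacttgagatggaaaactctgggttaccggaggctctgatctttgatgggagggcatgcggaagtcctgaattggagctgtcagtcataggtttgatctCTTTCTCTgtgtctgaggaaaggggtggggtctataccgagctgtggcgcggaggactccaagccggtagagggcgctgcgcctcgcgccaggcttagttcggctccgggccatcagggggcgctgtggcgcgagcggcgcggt
Apbb1ip (chr2:22774077-22774326, plus strand): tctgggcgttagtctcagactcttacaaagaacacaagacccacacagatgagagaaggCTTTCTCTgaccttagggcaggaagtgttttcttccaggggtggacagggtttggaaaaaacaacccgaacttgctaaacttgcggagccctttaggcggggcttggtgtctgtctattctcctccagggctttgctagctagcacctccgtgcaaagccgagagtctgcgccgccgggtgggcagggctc
Rassf5 (chr1:131200186-131200435, minus strand): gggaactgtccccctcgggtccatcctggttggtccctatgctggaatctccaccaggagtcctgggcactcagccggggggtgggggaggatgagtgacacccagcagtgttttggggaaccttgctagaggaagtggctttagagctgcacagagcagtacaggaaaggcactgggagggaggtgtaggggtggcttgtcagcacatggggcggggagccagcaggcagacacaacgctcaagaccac
Fermt3 (chr19:7019470-7019719, minus strand): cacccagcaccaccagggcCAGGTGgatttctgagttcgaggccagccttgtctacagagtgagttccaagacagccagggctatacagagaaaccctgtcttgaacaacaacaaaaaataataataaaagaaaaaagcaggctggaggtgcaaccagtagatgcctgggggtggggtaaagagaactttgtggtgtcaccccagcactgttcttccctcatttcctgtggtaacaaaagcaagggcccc

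The Blimp1 core was found in Apbb1ip, 191 bases before the start, and in Rapgef1, 144 bases before it, and in none of the other 7 genes. It was present in 7.30% of all 32851 promoters of this length. The E-box was found in Fermt3 alone, 231 bases before the start, and in 17.2% of all promoters. The ETS motif CCGGAAGT was in none of the 9 and in 2.88% of all promoters. A match is a run of letters only, and no binding was measured here.

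Levels are given as FPKM, the deposited unit, in which fragments are divided by transcript length and library size. They can be compared between genes because they are scaled to length, but they keep no record of sequencing depth. Totals ran between 418966 and 581262 FPKM per library, and 10180 to 10466 genes reached 1 FPKM. Mzb1 averaged 967 FPKM in PB ko cells and 16396 in PB wt cells, and was also lower in ko cells of both other populations. The labels give the genotype and no level. Mzb1 RNA was not absent from ko cells, at 273 and 289 FPKM in ActB ko, 899 and 871 in PrePB ko, and 1008 and 926 in PB ko libraries. The ActB wt libraries had 845 and 1016 FPKM. Plasmablast markers (Sdc1, Prdm1, Xbp1, Jchain, Irf4) summed to 191 to 223 FPKM in ActB ko cells, 268 to 293 in ActB wt cells, 18970 to 22134 in PB ko cells and 21979 to 25739 in PB wt cells. In bulk samples like these, fewer cells of a type and less RNA per cell cannot be told apart. Low values were also compared between libraries, using genes under 0.5 FPKM. A pair scored the percentage of these genes whose log2 ratio lay within 0.002 of the commonest ratio. By this score the 12 libraries were divided into 2 sets, of 8 and 4. Pairs scored 5.66% to 20.1% within the set of 8, 4.81% to 16.2% within the set of 4, and 1.38% to 2.75% across sets. The set of 4 held ActB ko replicate 2, PrePB ko replicate 2 and both PB ko libraries, and no wt library. In plasmablasts this pattern and the genotype therefore cannot be told apart. The ko against wt values in ActB and PrePB may carry the pattern too.

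Because talin, kindlin-3 and Rasgrp2 are also abundant in platelets and myeloid cells, markers of those cells were read beside the 10 genes. The platelet markers Ppbp and Treml1 were listed at 0 in all 12 libraries, and the 8 platelet markers together summed to at most 2.28 FPKM. The 7 macrophage and granulocyte markers found of 8 summed to 13.0 to 30.1 FPKM in ActB ko cells, 7.89 to 15.1 in ActB wt cells, 2.32 to 4.09 in PB ko cells and 0.337 to 0.539 in PB wt cells, mostly from Adgre1 in ActB. S100a9 and Elane were listed at 0 in all 12 libraries. The list did not hold Itgam, an integrin chain also made by myeloid cells. Its steep fall from ActB to PB cells is given below with the integrin chains. These sums therefore do not cover every gene of such cells. The T cell marker sum ran from 7.33 to 15.6 FPKM over all groups, mostly Lck or Cd3g, with Cd8a at 0 in PrePB and PB cells. The dendritic cell sum was 17.5 to 22.9 FPKM in ActB ko cells, 20.2 to 21.9 in ActB wt cells, 7.76 to 9.71 in PB ko cells and 7.41 to 8.78 in PB wt cells, nearly all of it Flt3, with Clec9a at 0 throughout. Natural killer and erythroid markers summed to at most 1.55 and 0.246 FPKM. The part of these cells in the results was not tested.

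Activated B cells carried all 10 genes at 6.90 FPKM or more in every library. In PB against ActB ko cells, Rasgrp2, Apbb1ip, Rassf5, Fermt3 and Rapgef1 fell, Rap1a rose, and Tln1, Rap1b, Vcl and Ilk did not pass the test. In PB against ActB wt cells the same 5 fell, and Rap1a and Vcl rose. Tests used limma on log2(FPKM + 1) over all 11069 genes, with a Benjamini-Hochberg adjusted p below 0.05 as threshold, so fold changes are on the FPKM + 1 scale and understate those of low genes. These populations differ widely. In PB against ActB, 31.2% of all tested genes rose and 30.9% fell in ko cells, and 31.0% rose and 31.0% fell in wt cells. The 5 of 10 that fell and the 1 or 2 that rose stand against that background. The median change over the 10 genes was -0.21 in ko and -0.34 in wt cells, beside -0.01 over all genes in each. With all libraries scaled to equal totals outside small RNA genes, the median of all genes moved to -0.27 in ko and -0.38 in wt cells, 2444 genes rose and 5098 fell in ko cells, 2149 rose and 5774 fell in wt cells, and the wt count of the 10 genes became 1 higher and 8 lower. Relative to that median Rasgrp2 was at -4.41 in ko and -4.74 in wt cells and Fermt3 at -0.99 in ko and -1.22 in wt cells.

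**Figure D1:**
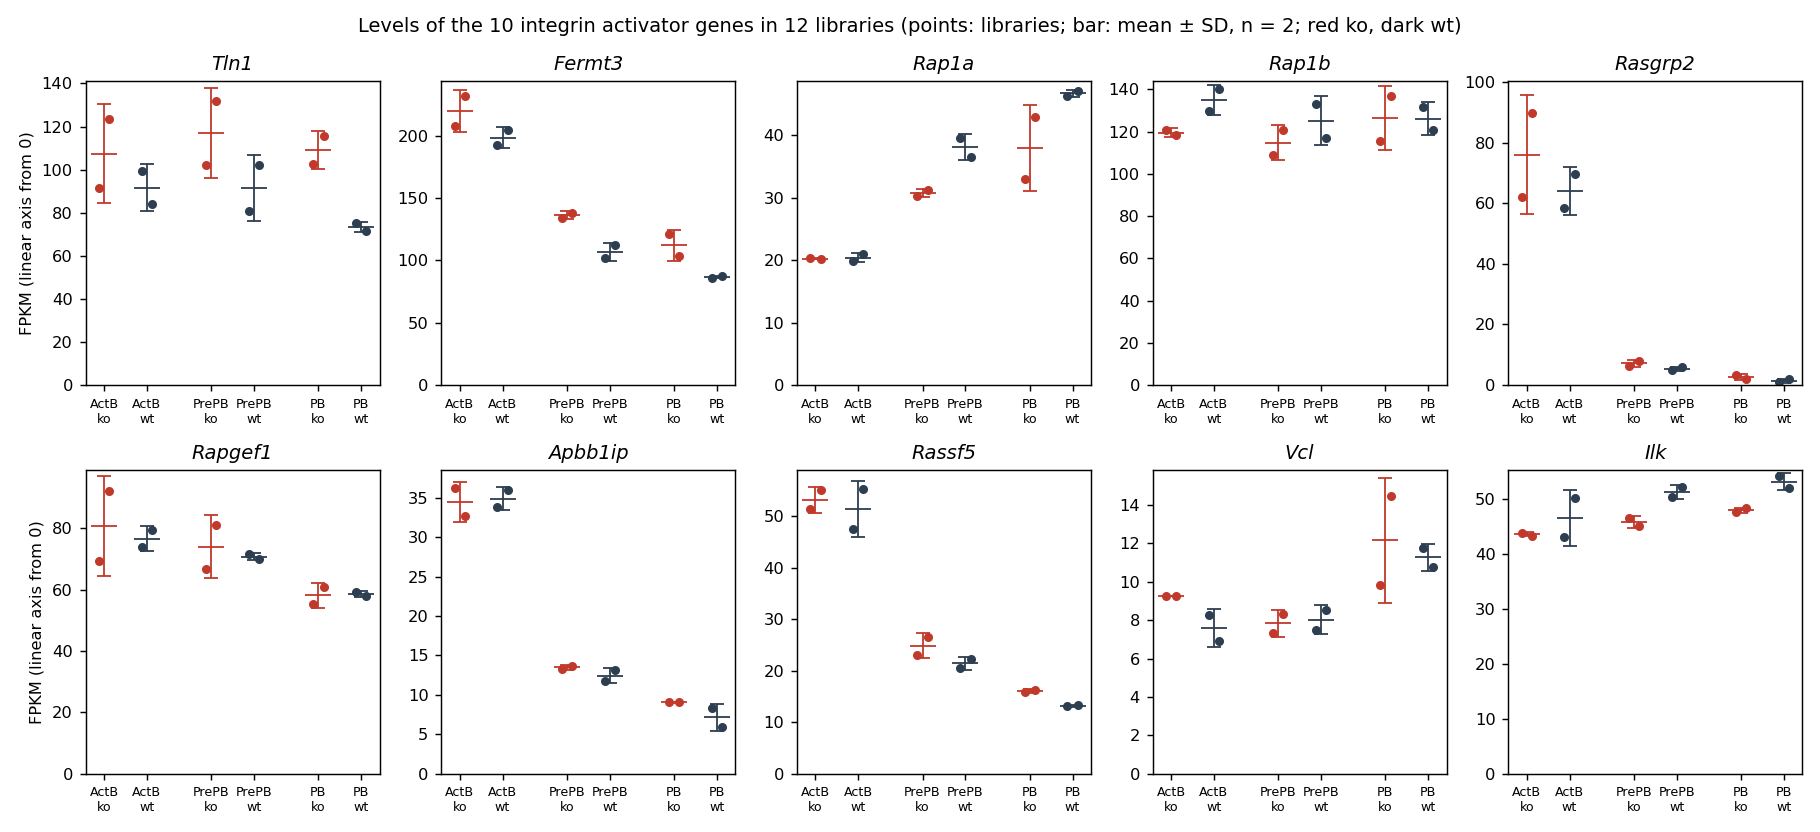
FPKM of each of the 10 genes (linear axes from 0) in ActB, PrePB and PB cells, ko left of wt in each population. Points are libraries and bars the mean ± SD of 2. Rasgrp2, Apbb1ip, Rassf5 and Fermt3 are highest in ActB cells, Rap1a is lowest there, and Rap1b stays between 109 and 140 FPKM in every library.

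For Rasgrp2, Apbb1ip, Rassf5, Fermt3 and Rap1a the larger part of the log2 change was already present in pre-plasmablasts. In PrePB against ActB, Rasgrp2, Apbb1ip, Rassf5 and Fermt3 fell and Rap1a rose in ko cells, and the same 5 changed in the same direction in wt cells. Over all genes 27.1% rose and 27.0% fell in ko cells, and 27.1% rose and 26.3% fell in wt cells. In PB against PrePB, Rasgrp2, Apbb1ip and Rassf5 fell again, in ko and in wt cells, and none rose. Rapgef1 and Vcl had the larger value at this second step, without passing the test at either as fitted. The log2 change of Rapgef1 was -0.34 in ko and -0.26 in wt cells for PB against PrePB, beside -0.12 in ko and -0.11 in wt cells for PrePB against ActB. That of Vcl was 0.55 in ko (limma adjusted p = 0.0502) and 0.44 in wt cells for PB against PrePB, beside -0.22 in ko and 0.07 in wt cells for PrePB against ActB. Other settings passed some of these. For PB against PrePB, Rapgef1 passed in ko cells with equal totals (limma adjusted p = 0.0185), a replicate block (0.0225) or a term for the low-value pattern (0.00895). In wt cells it passed with equal totals (0.0326, and 0.0155 for PrePB against ActB). Vcl passed in ko cells with a filter of 5 FPKM (0.0444), quantile normalization (0.0421) or a replicate block (0.0302). With quantile normalization the ko count for PB against PrePB was 1 higher and 4 lower. The background there was 6.57% higher and 4.24% lower in ko cells, and 5.02% higher and 3.70% lower in wt cells. The comparisons within a genotype share their libraries with one another.

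**Figure D2:**
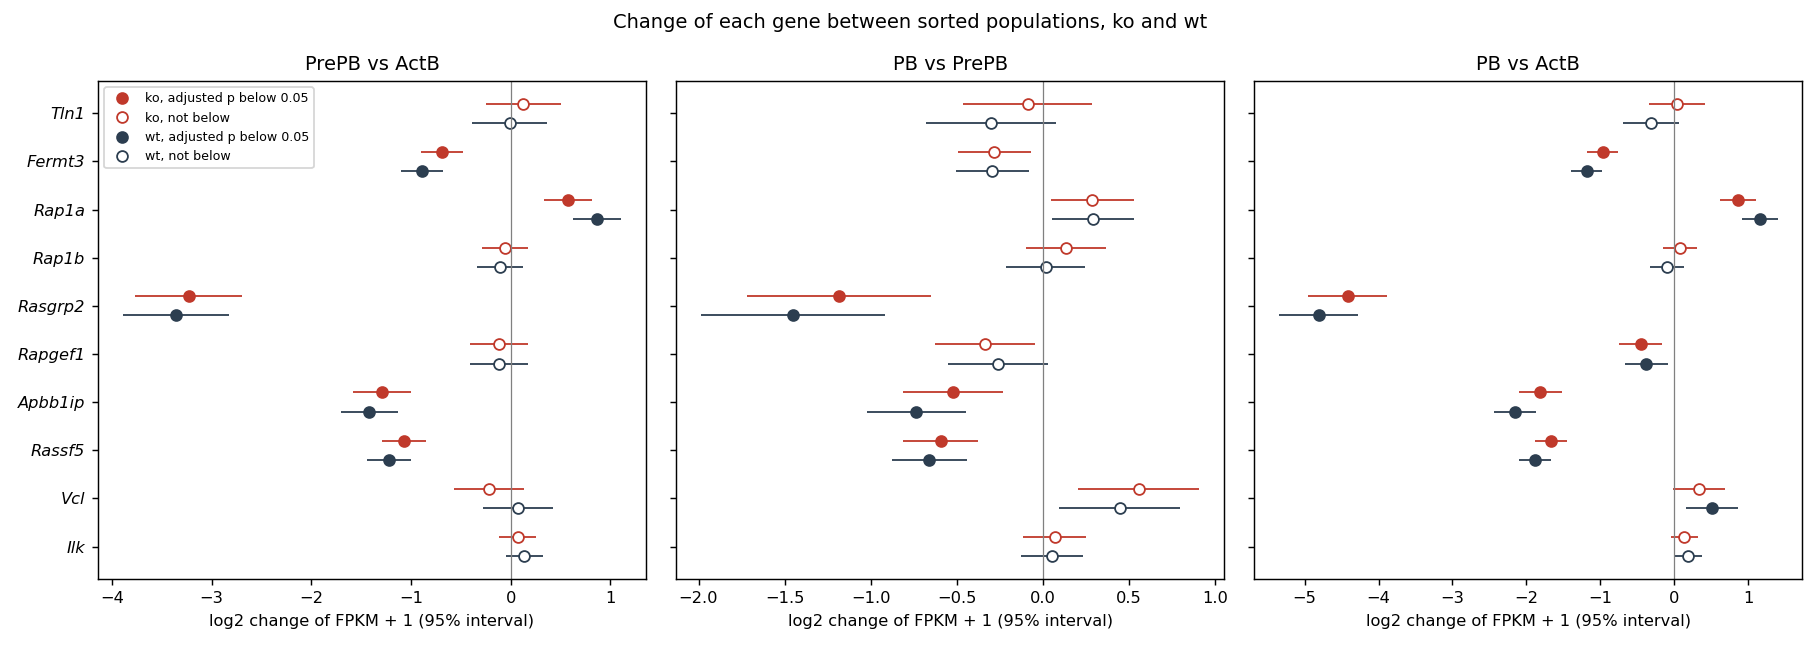
log2 change of FPKM + 1 with its 95% interval for each gene, in PrePB against ActB, PB against PrePB and PB against ActB, ko above wt. Filled points have a limma adjusted p below 0.05. Rasgrp2 has the lowest point in all 3 panels, at -4.41 in ko and -4.81 in wt cells for PB against ActB.

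Rap1a and Rap1b, the GTPases at the centre of the switch, took different courses. In ko cells Rap1a had 20.3 and 20.3 FPKM in ActB, 30.3 and 31.2 in PrePB, and 33.1 and 42.9 in PB. In wt cells it had 19.9 and 20.9 FPKM in ActB, 39.6 and 36.6 in PrePB, and 46.4 and 47.2 in PB. Every PrePB and PB library stood above every ActB library of its genotype. Rap1a rose 1.82-fold in PB against ActB ko cells (log2 change 0.86 ± 0.11 SE, limma adjusted p = 4.51e-05) and 2.23-fold in wt cells (1.16 ± 0.11 SE, limma adjusted p = 4.41e-06). Of all genes tested, 89.1% had a lower change than Rap1a in the wt comparison.

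Rap1b was the more abundant of the pair in every library. In ko cells it had 121 and 118 FPKM in ActB, 109 and 121 in PrePB, and 116 and 137 in PB. The wt cells had 130 and 140 FPKM in ActB, 133 and 117 in PrePB, and 132 and 121 in PB. The 6 groups overlapped their neighbours in order of level throughout. The log2 change of Rap1b in PB against ActB was 0.07 (95% interval -0.16 to 0.30) in ko cells, where its sign turned with equal totals, and -0.10 (-0.33 to 0.13) in wt cells. Neither passed the test as fitted, but with equal totals, which moves all genes down, both did (-0.22 in ko and -0.51 in wt cells), and with quantile normalization the wt value did (-0.29).

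The share of Rap1a in the summed Rap1a and Rap1b FPKM was higher in the later populations. It was 14.4% and 14.6% in the ActB ko libraries and 13.3% and 13.0% in ActB wt, 21.7% and 20.5% in PrePB ko and 22.9% and 23.8% in PrePB wt, and 22.3% and 23.8% in PB ko and 26.0% and 28.1% in PB wt. The ActB libraries were all below 15%, and those of the other populations all above 20%. These shares do not depend on library scaling. The coding sequences of the 2 genes are 81.6% identical over 555 bases in the GENCODE M21 transcripts, and the encoded proteins of 184 residues differ at 9 of them. Their longest identical run was 20 bases, and no run of 50 bases was shared between the whole transcripts.

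Rasgrp2 (CalDAG-GEFI), the exchange factor that loads Rap1 in answer to calcium and diacylglycerol, had the lowest log2 change of the 10 genes at every step. In ko cells it had 62.2 and 89.9 FPKM in ActB, 6.30 and 7.93 in PrePB, and 3.24 and 1.98 in PB. In wt cells it had 58.5 and 69.7 FPKM in ActB, 4.84 and 5.85 in PrePB, and 0.887 and 1.84 in PB. No library of a later population reached the lowest library of the population before it in the same genotype. It fell 21.3-fold in PB against ActB ko cells (log2 change -4.41 ± 0.24 SE, limma adjusted p = 7.44e-08) and 28.0-fold in wt cells (-4.81 ± 0.24 SE, limma adjusted p = 3.84e-08). 0.226% of all tested genes had a lower change in the wt comparison.

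The step from ActB to PrePB held the larger part of this fall, at -3.23 in ko and -3.36 in wt cells on the log2 scale. From PrePB to PB the log2 change was -1.18 in ko cells (limma adjusted p = 0.0123) and -1.45 in wt cells (0.00581). In ko cells that last fall no longer passed without PrePB replicate 2 (limma adjusted p = 0.0764) or without PB replicate 2 (0.110). In wt cells it did not pass without the 3 wt libraries of replicate number 1 (0.154), which leaves 1 library in each wt group.

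Rapgef1, which activates Rap1 downstream of Crk adaptors, kept most of its level. In ko cells it had 69.2 and 92.2 FPKM in ActB, 66.7 and 81.2 in PrePB, and 55.3 and 61.0 in PB. The wt cells had 73.7 and 79.4 FPKM in ActB, 71.5 and 69.8 in PrePB, and 59.3 and 58.0 in PB. The PB libraries lay below all ActB libraries of their genotype, by a margin that was small beside that of Rasgrp2. It fell 1.37-fold in PB against ActB ko cells (log2 change -0.45 ± 0.13 SE, limma adjusted p = 0.0112) and 1.30-fold in wt cells (-0.38 ± 0.13 SE, limma adjusted p = 0.0270). The wt call was lost with any 1 of its 4 libraries left out (limma adjusted p between 0.0520 and 0.125), and the ko call without ActB ko replicate 2 (0.112) or PB ko replicate 1 (0.0740).

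Rasgrp2 made up 47.3% and 49.4% of the summed Rasgrp2 and Rapgef1 FPKM in the ActB ko libraries and 44.2% and 46.7% in ActB wt. In PB the share was 5.53% and 3.15% in ko and 1.47% and 3.07% in wt libraries. The pair stood at similar levels in ActB cells, and Rapgef1 made up most of it in PB cells.

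Other exchange factor genes changed in both directions. Of 9 such genes outside the 10, 7 were tested. Between PB and ActB cells, 3 rose and 2 fell in ko cells, and 3 rose and 1 fell in wt cells. Rasgrp1, a diacylglycerol-driven exchange factor that acts chiefly on Ras, fell to 2.42 FPKM in PB ko cells against 26.2 in ActB ko cells (log2 change -3.00) and to 1.83 in PB wt cells against 24.0 in ActB wt cells (-3.16). Rapgef3 (Epac1), which is driven by cyclic AMP, rose to 29.3 FPKM in PB ko cells against 7.70 in ActB ko cells (1.80) and to 26.5 in PB wt cells against 6.25 in ActB wt cells (1.91). Rapgef6 rose by 0.64 and Rapgef2 by 0.71 in ko cells, and by 0.46 and 0.40 in wt cells, on the log2 scale, and the wt calls were lost with equal totals. Rapgef5 fell by 0.57 in ko cells and had a log2 change of -0.06 in wt cells, where it did not pass. None of these 7 genes passed the test of the ko change minus the wt change. Rasgrp3, named here after its values were seen because of its high level, had 60.3 FPKM in PB ko and 64.0 in ActB ko cells, and 60.4 in PB wt and 62.7 in ActB wt cells. It did not pass the test, but with equal totals it did (-0.38 in ko and -0.46 in wt cells).

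**Figure D3:**
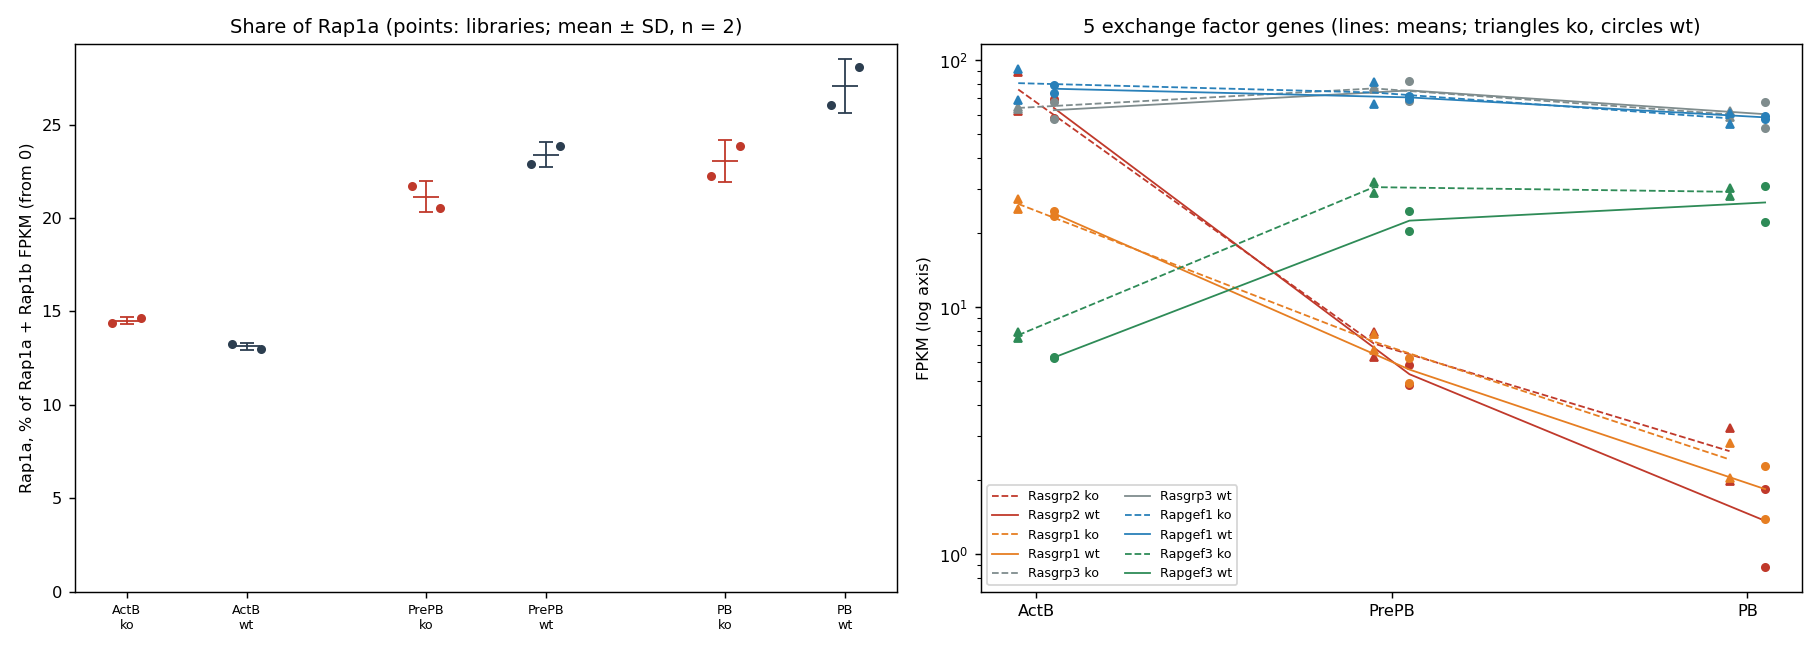
Left, share of Rap1a in Rap1a + Rap1b FPKM (percent, linear axis from 0) in each library, with mean ± SD of 2, ko left of wt. Right, FPKM (log axis) of Rasgrp2, Rasgrp1, Rasgrp3, Rapgef1 and Rapgef3 across ActB, PrePB and PB, with lines through the means. Rasgrp2 and Rasgrp1 drop below 4 FPKM in PB while Rapgef3 reaches 22.1 to 31.0 FPKM.

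GTPase activating proteins, which return Rap1 to its GDP form, were tested for 8 of 9 listed genes. In PB against ActB, 2 rose and 2 fell in ko cells, and 1 rose and 2 fell in wt cells. Rap1gap rose to 8.43 FPKM in PB ko cells against 2.15 in ActB ko cells (log2 change 1.58) and to 8.35 in PB wt cells against 1.35 in ActB wt cells (2.00). Rasa3, which acts on Rap1 and Ras, fell to 44.7 FPKM in PB ko cells against 160 in ActB ko cells (-1.80) and to 42.7 in PB wt cells against 158 in ActB wt cells (-1.86). Rasa2 rose by 0.49 (a call lost with equal totals) and Rap1gap2 fell by 0.76 in ko cells, and Sipa1l1 fell by 0.60 in wt cells. Rasa2 in wt (0.32), Rap1gap2 in wt (-0.28) and Sipa1l1 in ko cells (-0.37) did not pass.

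The effectors Apbb1ip and Rassf5, which carry the signal of Rap1-GTP towards integrins, fell side by side. Apbb1ip (RIAM) binds Rap1-GTP and talin. In ko cells it had 36.2 and 32.7 FPKM in ActB, 13.3 and 13.7 in PrePB, and 9.04 and 9.13 in PB. In wt cells it had 33.9 and 35.9 FPKM in ActB, 11.7 and 13.2 in PrePB, and 8.38 and 5.95 in PB. The populations did not overlap within either genotype. Apbb1ip fell 3.51-fold in PB against ActB ko cells (log2 change -1.81 ± 0.13 SE, limma adjusted p = 6.02e-07) and 4.44-fold in wt cells (-2.15 ± 0.13 SE, limma adjusted p = 1.58e-07). The further fall from PrePB to PB, by 0.52 in ko cells (limma adjusted p = 0.0299) and 0.74 in wt cells (0.00781), was less secure. In ko cells it did not pass without a filter (limma adjusted p = 0.0624) or with a term for the low-value pattern (0.0782). In wt cells it did not pass with the compared groups alone (limma adjusted p = 0.0845). The ko call was lost with any 1 of its 4 libraries left out (limma adjusted p 0.105 to 0.133), and the wt call without PrePB wt replicate 2 (0.0619) or PB wt replicate 2 (0.0541).

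Rassf5 (RAPL in its short form) binds Rap1-GTP and, in lymphocytes, the integrin LFA-1. In ko cells it had 51.5 and 55.0 FPKM in ActB, 23.1 and 26.6 in PrePB, and 15.9 and 16.3 in PB. The wt cells had 47.6 and 55.3 FPKM in ActB, 20.6 and 22.3 in PrePB, and 13.1 and 13.3 in PB. The populations again did not overlap within a genotype. Rassf5 fell 3.17-fold in PB against ActB ko cells (log2 change -1.67 ± 0.10 SE, limma adjusted p = 1.34e-07) and 3.69-fold in wt cells (-1.88 ± 0.10 SE, limma adjusted p = 5.12e-08). From PrePB to PB it fell by 0.60 in ko cells (limma adjusted p = 0.00448) and by 0.66 in wt cells (0.00356). The wt step did not pass without the 3 wt libraries of replicate number 1 (0.0911). The files give 1 value per symbol, so the long and short forms of Rassf5 were not told apart.

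Among 10 further genes of Rap2 and other Rap effectors, 8 were tested. Between PB and ActB cells, 2 rose and 4 fell in ko cells, and 1 rose and 4 fell in wt cells. Raph1 (lamellipodin), the close relative of Apbb1ip, rose to 3.88 FPKM in PB ko cells against 0.677 in ActB ko cells (log2 change 1.54) and to 3.59 in PB wt cells against 0.936 in ActB wt cells (1.25). Stk4 (MST1), a kinase that binds Rassf5, fell by 0.79 in ko cells and by 0.78 in wt cells. Mob1a, a partner of that kinase, fell by 1.01 in ko cells and by 1.19 in wt cells, to 45.3 FPKM in PB ko cells against 92.2 in ActB ko cells and 38.1 in PB wt cells against 88.4 in ActB wt cells. Krit1 fell by 0.38 in ko and 0.56 in wt cells, Rap2b fell by 0.48 in ko and 0.43 in wt cells, and Mob1b rose in ko cells (0.41, a call lost with equal totals) but did not pass in wt cells (0.22).

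Tln1 and Fermt3, whose proteins bind the integrin tail, parted. Talin-1 is the adaptor that opens the integrin and ties it to actin. In ko cells Tln1 had 91.3 and 124 FPKM in ActB, 102 and 132 in PrePB, and 103 and 115 in PB. In wt cells it had 99.3 and 83.9 FPKM in ActB, 80.7 and 102 in PrePB, and 75.1 and 71.7 in PB. The PB wt libraries were the lowest of the 12, and the ko populations overlapped. The log2 change in PB against ActB was 0.04 in ko cells (95% interval -0.34 to 0.41, limma adjusted p = 0.868) and -0.31 in wt cells (-0.69 to 0.06, limma adjusted p = 0.134). The wt value passed under other settings, at -0.44 with quantile normalization (limma adjusted p = 0.0414), -0.72 with equal totals (0.00251), and -0.31 with the compared groups alone (0.0404) or a term for the low-value pattern (0.0448).

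Kindlin-3, from Fermt3, is the kindlin of blood cells. In ko cells Fermt3 had 208 and 232 FPKM in ActB, 134 and 138 in PrePB, and 121 and 103 in PB. The wt cells had 192 and 204 FPKM in ActB, 102 and 112 in PrePB, and 86.3 and 87.4 in PB. The ActB libraries stood above all others, and Fermt3 was the most abundant of the 10 genes there. It fell 1.96-fold in PB against ActB ko cells (log2 change -0.97 ± 0.10 SE, limma adjusted p = 6.94e-06) and 2.27-fold in wt cells (-1.18 ± 0.10 SE, limma adjusted p = 1.38e-06). From PrePB to PB the change was -0.28 in ko and -0.29 in wt cells and did not pass in either as fitted. With quantile normalization it passed in ko cells (-0.37, limma adjusted p = 0.0386). With equal totals, which moves all genes down, it passed in ko (-0.43, limma adjusted p = 0.0238) and in wt cells (-0.46, 0.0200).

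The paralogs Tln2, Fermt1 and Fermt2 did not pass the filter on low values. Their highest values in any library were 0.782, 0.0147 and 0.0287 FPKM.

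The integrin chains that these proteins act on changed in both directions. In PB against ActB, 7 of the 12 chains tested rose and 4 fell in ko cells, and 6 rose and 4 fell in wt cells. Itgb1 fell by 1.91 in ko and by 2.01 in wt cells, and Itgb7 had log2 changes of -2.90 in ko and -2.93 in wt cells. Itgam fell as well, with -5.56 in ko and -6.07 in wt cells. Itga4 rose by 2.22 in ko and 1.98 in wt cells, Itgb2 by 1.34 and 1.13, Itgav by 1.95 and 1.57, and Itgb5 by 3.12 and 3.18. Itgal had 135 FPKM in PB ko and 122 in ActB ko cells, and 128 in PB wt and 107 in ActB wt cells, and did not pass (its sign turned with equal totals).

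Of 10 adaptors and kinases upstream of Rap1 and talin, 8 were tested, and 2 rose and 5 fell in PB against ActB in ko cells and in wt cells alike. Prkcb, the protein kinase C of B cell receptor signalling, fell to 21.8 FPKM in PB ko cells against 153 in ActB ko cells (log2 change -2.76) and to 15.2 in PB wt cells against 144 in ActB wt cells (-3.16). Cyth1 (cytohesin-1), which binds the beta2 tail, fell by 1.04 in ko and 1.03 in wt cells. Dock2, a Rac exchange factor, fell by 0.78 in ko and 0.98 in wt cells. Prkd2, a kinase of the protein kinase D family, rose by 1.06 in ko and 1.05 in wt cells. Crk, the adaptor that binds Rapgef1, rose by 0.73 in ko and 0.57 in wt cells, the wt call being lost with equal totals. Skap1 did not exceed 0.140 FPKM and Fyb 1.04 FPKM in any library.

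Of the adaptors, Ilk had the narrowest range of the 10 genes over the 12 libraries, its highest value being 1.26 times its lowest, beside 1.28 times for Rap1b and 2.09 times for Vcl. Vinculin, from Vcl, binds talin under force and ties it to actin. In ko cells Vcl had 9.26 and 9.25 FPKM in ActB, 7.35 and 8.31 in PrePB, and 9.85 and 14.4 in PB. In wt cells it had 8.29 and 6.90 FPKM in ActB, 7.49 and 8.55 in PrePB, and 11.8 and 10.8 in PB. PB libraries were above ActB libraries in each genotype. The log2 change in PB against ActB was 0.34 ± 0.16 SE in ko cells (limma adjusted p = 0.0878) and 0.52 ± 0.16 SE in wt cells, where Vcl rose (limma adjusted p = 0.0155). The difference between these changes, ko minus wt, was -0.18 (95% interval -0.68 to 0.32) and did not pass. With equal totals the wt value was 0.14 and did not pass (limma adjusted p = 0.434). The wt call was also lost without ActB wt replicate 2 (limma adjusted p = 0.108), without PB wt replicate 1 (0.0813) and without the 3 wt libraries of replicate number 1 (0.0924). The ko value passed without PB ko replicate 1, at 0.59 (0.00722).

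The value of Vcl is also uncertain because 2090 of its 5267 exon bases (39.7%) lie over exons of Ap3m1 on the opposite strand in the GENCODE M21 annotation of GRCm38. The library kit keeps strand, but the use of strand in counting is not given in the sources used here. Ap3m1 rose to 15.4 FPKM in PB ko cells against 8.08 in ActB ko cells (log2 change 0.85) and to 18.7 in PB wt cells against 9.44 in ActB wt cells (0.92). The part of Ap3m1 reads in the values of Vcl was not tested.

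Integrin-linked kinase, from Ilk, is a pseudokinase that joins integrin tails to parvins. In ko cells Ilk had 43.8 and 43.2 FPKM in ActB, 46.4 and 44.9 in PrePB, and 47.5 and 48.2 in PB. The wt cells had 43.0 and 50.1 FPKM in ActB, 50.3 and 52.1 in PrePB, and 54.1 and 52.0 in PB. All 12 libraries lay between 43.0 and 54.1 FPKM. The log2 change in PB against ActB was 0.14 in ko cells (95% interval -0.05 to 0.32) and 0.19 in wt cells (0.01 to 0.37, limma adjusted p = 0.0657). The wt value passed without ActB wt replicate 2 (0.30, limma adjusted p = 0.0120), and its sign turned with equal totals. Of the 1877 exon bases of Ilk, 1533 (81.7%) overlap Taf10 and 319 (17.0%) overlap Rrp8 on the opposite strand. Taf10 had 120 FPKM in PB ko and 120 in ActB ko cells, and 104 in PB wt and 109 in ActB wt cells, so it was the more abundant of the pair, and its part in the values of Ilk was not tested.

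Around them, 14 of 18 listed focal adhesion adaptors were tested, and in PB against ActB 4 rose and 7 fell in ko cells, and 4 rose and 6 fell in wt cells. Zyx (zyxin), which gathers actin at adhesions, rose to 43.6 FPKM in PB ko cells against 5.40 in ActB ko cells (log2 change 2.85) and to 46.2 in PB wt cells against 6.02 in ActB wt cells (2.76). Parvb, a parvin that binds Ilk, rose to 5.26 FPKM in PB ko cells against 0.0894 in ActB ko cells (2.52) and to 4.94 in PB wt cells against 0.119 in ActB wt cells (2.40). Parvg, the parvin of blood cells, fell by 1.06 in ko and 1.12 in wt cells, to 72.9 FPKM in PB ko cells against 153 in ActB ko cells and 65.1 in PB wt cells against 143 in ActB wt cells. Of the focal adhesion kinases, Ptk2 (FAK) fell by 2.11 in ko and 1.82 in wt cells, and Ptk2b (PYK2) rose by 1.75 in ko and 1.81 in wt cells. Lpxn (leupaxin), a paxillin relative of leukocytes, fell too (log2 change -1.73 in ko and -1.77 in wt cells).

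Genes of proteins that hold integrins inactive, compete with talin or bind filamin were tested for 8 of 9. Between PB and ActB cells, 2 rose and 2 fell in ko cells, and 1 rose and 2 fell in wt cells. Flna, whose filamin competes with talin for the beta tail, fell to 22.0 FPKM in PB ko cells against 147 in ActB ko cells (log2 change -2.66) and to 17.9 in PB wt cells against 143 in ActB wt cells (-2.93). Dok2 fell by 1.44 in ko and 2.16 in wt cells. Tns3, a tensin, rose to 34.8 FPKM in PB ko cells against 1.39 in ActB ko cells (3.90) and to 35.3 in PB wt cells against 1.38 in ActB wt cells (3.93). Fblim1, which binds filamin, rose by 0.46 in ko cells to 1.10 FPKM, a call lost with either other scaling, and did not pass in wt cells (0.32). Over all 53 tested pathway genes outside the 10, 15 rose and 22 fell in ko cells, and 12 rose and 20 fell in wt cells, beside 11 and 30 in ko and 8 and 33 in wt cells with equal totals.

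Ko and wt cells were next compared within each population. None of the 10 genes passed the test between ko and wt cells in ActB, PrePB or PB. Few genes did at all: 0.0542% of tested genes in ActB, 0.117% in PrePB and 0.407% in PB. At an unadjusted limma p below 0.05 the counts were 0 of the 10 genes in ActB, 2 in PrePB and 6 in PB, beside 8.07%, 15.0% and 16.0% of all genes. The lowest limma adjusted p was 0.738 for Rap1b in ActB, 0.158 for Fermt3 in PrePB and 0.121 for Fermt3 in PB.

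**Figure D4:**
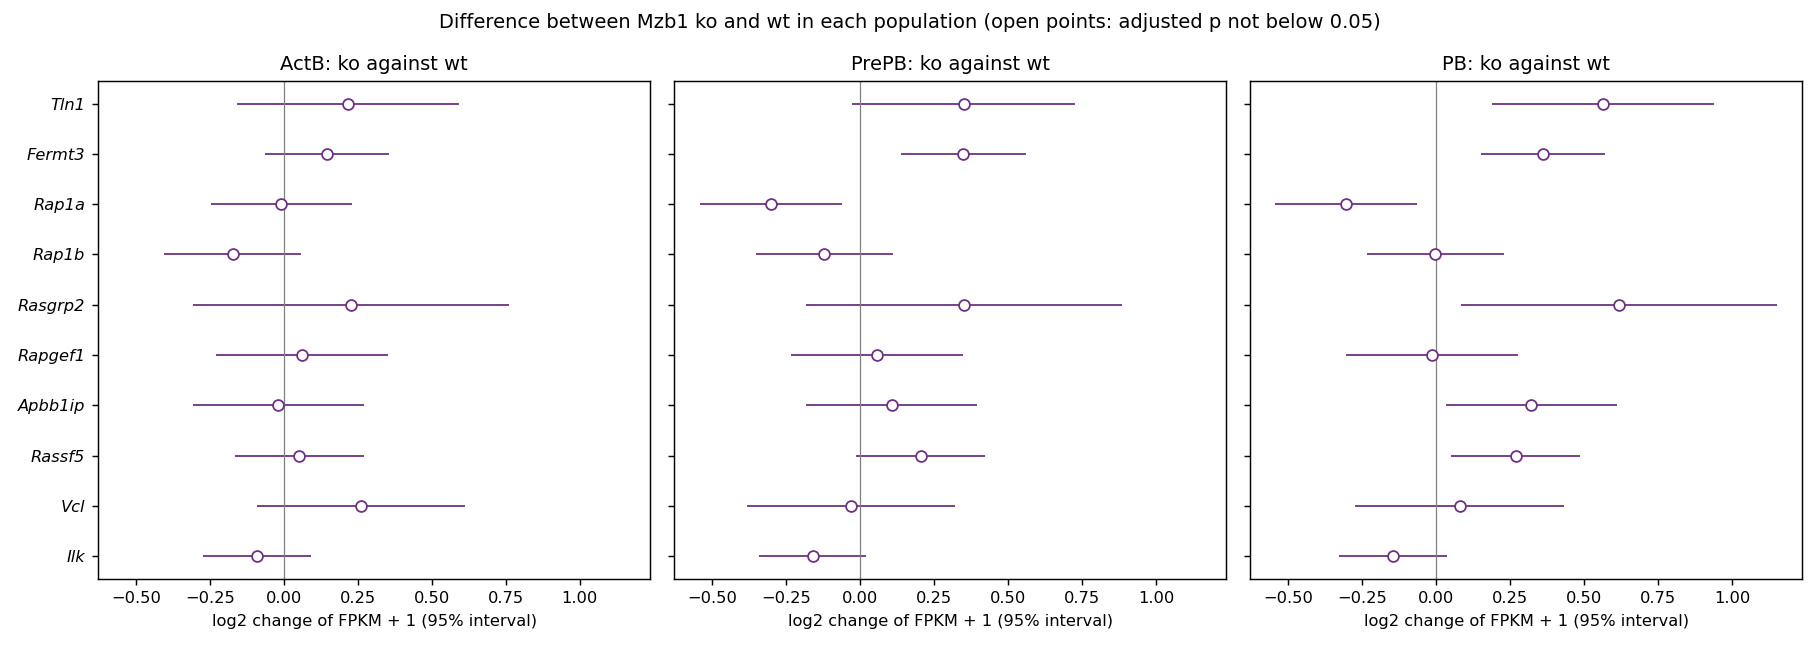
log2 change of FPKM + 1 in ko against wt cells with its 95% interval for each gene in ActB, PrePB and PB. All points are open because no limma adjusted p was below 0.05. Tln1 and Rasgrp2 lie furthest to the right in PB, at 0.56 and 0.62, and Rap1a lies at -0.30 in PrePB and PB.

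In plasmablasts the 2 libraries of each genotype did not overlap for 7 of the 10 genes, 5 higher and 2 lower in ko cells, beside 49.3% of all genes. Rasgrp2 (log2 change 0.62, 95% interval 0.08 to 1.15), Tln1 (0.56, 0.19 to 0.94), Fermt3 (0.36, 0.15 to 0.57), Apbb1ip (0.32, 0.03 to 0.61) and Rassf5 (0.27, 0.05 to 0.49) had higher values in ko cells. Rap1a (-0.30, -0.54 to -0.07) and Ilk (-0.15, -0.33 to 0.04) had lower values. For Rasgrp2 these were 3.24 and 1.98 FPKM in PB ko cells and 0.887 and 1.84 in PB wt cells, beside a mean of 64.1 FPKM in ActB wt cells. For the other 3, Vcl, Rap1b and Rapgef1, the libraries overlapped. With a term for the low-value pattern the log2 changes in PB were 0.21 for Rasgrp2, 0.17 for Tln1, 0.26 for Fermt3, 0.12 for Rassf5, 0.37 for Apbb1ip and -0.32 for Rap1a. That term is estimated from ActB ko and PrePB ko alone, the groups whose libraries differ in pattern. There it is also the difference between replicates 1 and 2. In PB it cannot separate pattern from genotype, so no conclusion is drawn from these values. Over the 13 settings run, the lowest limma adjusted p of any of the 10 genes between genotypes was 0.0693, for Rap1a in PB.

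In PrePB, 7 genes had libraries without overlap, 5 higher and 2 lower in ko cells, beside 47.1% of all genes. They were Tln1, Fermt3, Rasgrp2, Apbb1ip and Rassf5 above and Rap1a and Ilk below. The gap was narrow for Tln1, at 102.2 FPKM in the lower ko library and 102.1 in the higher wt library, and for Apbb1ip, at 13.3 and 13.2. Fermt3 and Tln1 had the highest log2 changes with Rasgrp2, at 0.35 each, and Rap1a the lowest, at -0.30. In ActB only Fermt3, Vcl and Rap1b had libraries without overlap, beside 36.0% of all genes, and every log2 change lay between -0.17 and 0.26.

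Library features moved with genotype, mostly in plasmablasts and pre-plasmablasts. Pax5, the B cell identity factor, rose in PB ko cells, to 6.58 FPKM against 2.39 in PB wt cells (limma adjusted p = 0.00310). The B cell genes Cd79a, Cd79b, Ms4a1 and Pax5, a group put together after the values were seen, summed to 2320 to 2326 FPKM in PB ko and 1826 to 1961 in PB wt cells, to 3286 to 3470 in PrePB ko and 2673 to 2745 in PrePB wt cells, and overlapped in ActB. The plasmablast marker sum was 8609 to 8666 FPKM in PrePB ko and 10778 to 11711 in PrePB wt cells, and overlapped in PB. In ActB it did not overlap either, at 191 to 223 FPKM in ko and 268 to 293 in wt cells. The macrophage and granulocyte sums did not overlap in PB, as given above, nor in PrePB, at 1.16 to 4.40 FPKM in ko and 0.950 to 1.06 in wt cells. The T cell sum was 11.6 to 15.6 FPKM in PB ko and 7.93 to 11.0 in PB wt cells, and overlapped in the other populations. Itgam was 1.37 FPKM in PB ko and 0.174 in PB wt cells (log2 change 1.00, limma adjusted p = 0.0377), and 13.2 in PrePB ko and 2.95 in PrePB wt cells (1.85, limma adjusted p = 0.000994). The part of these features in the values of the 10 genes was not tested. Xist was between 33.3 and 81.4 FPKM in the 3 wt libraries of replicate number 1 and at most 0.389 FPKM elsewhere, so these libraries differ from the rest in more than genotype.

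Whether loss of Mzb1 changed the course from ActB to PB was tested as an interaction, the ko change minus the wt change. None of the 10 genes passed for PrePB minus ActB, PB minus PrePB or PB minus ActB, and 0.0361%, 0% and 0.0452% of all genes did. None of the 10 had an unadjusted limma p below 0.05 in any of the 3. At a limma adjusted p below 0.05, none of the 53 tested pathway genes outside the 10 passed in any of the 3. A pass in 1 genotype alone, as for Rapgef5, is therefore not a shown difference between genotypes. The difference for Rasgrp2 in PB minus ActB was 0.39 (95% interval -0.36 to 1.15), that for Apbb1ip 0.34 (-0.07 to 0.75) and that for Rap1a -0.30 (-0.63 to 0.04). All 6 genes that changed in PB against ActB in both genotypes did so in the same direction, and the change was larger in wt cells for 5 of them, Rapgef1 being the other.

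The 4 falling genes followed one another closely over the 12 libraries, which share their populations and their scaling. Pearson's r of log2(FPKM + 1) was 0.992 between Rasgrp2 and Rassf5, 0.988 between Apbb1ip and Rassf5, 0.979 between Rasgrp2 and Apbb1ip and 0.974 between Fermt3 and Rasgrp2. Rap1a ran opposite to Fermt3, at -0.988. Tln1 and Rap1b followed none of the other members at 0.7 or above. Among all tested genes outside the 10, the pattern of Rasgrp2 was most like those of Il4ra (0.997), Evl and Stx7, that of Rassf5 like Aldh2 (0.998), Pyhin1 and Lcp1, and that of Apbb1ip like Aim2 (0.996), Lcp1 and Jak1. Fermt3 was most like Stat5b (0.994), Mkl1 and Arhgap27, and Rap1a like Nomo1 (0.996), Chrnb4 and Gdap2. The nearest genes were less close for Tln1 (Helz2, 0.942), Rapgef1 (Adck3, 0.940), Ilk (Kcmf1, 0.939), Rap1b (Psmd13, 0.904) and Vcl (Mark3, 0.896).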

How the data were processed

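RNA of sorted LPS-cultured B cells was measured in 12 libraries, 2 for each of 3 populations and 2 genotypes. Per the labels, polyadenylated RNA was made into libraries with a stranded TruSeq kit. The authors deposited FPKM values for 24325 symbols in each library. Per the submitters' processing notes, the build was mm9 and the tools were Cuffnorm 2.2.1, Cuffdiff, Cufflinks 2.2.1, TopHat2 2.0.14 and bcl2fastq (0.3.1 and 2.17.1.14). The annotation, the library scaling and any filter are not given in the sources used here. The depth is unknown, so no counting interval is given.

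From these values, log2(FPKM + 1) was fitted with limma 3.58.1 (limma-trend, R 4.3.3), with 1 coefficient per group, over the 11069 genes that reached 1 FPKM in 2 or more libraries. The fit had 6 residual and 4.49 prior degrees of freedom, and tests were two-sided. Ko was compared with wt in each population, populations within each genotype, and the ko effects between populations. Correlations of replicates within a group were 0.984 to 0.989. Settings tried were another pseudocount (0.1), no filter, a filter of 5 FPKM, quantile normalization, equal totals without small RNA genes, compared groups alone, a replicate block, a term for the low-value pattern, and libraries left out.

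The members and the lists were chosen with earlier results of these data known. Named were all 10 members, Mzb1, 5 integrin chains, up to 3 called genes each way per pathway list in PB against ActB (mean of at least 1 FPKM in the higher group, libraries without overlap), list genes called between genotypes, and the 3 genes most correlated with each member, of which 1 is given for those with r below 0.95. The overlapping genes Ap3m1, Taf10 and Rrp8 were named for their position, and Skap1 and Fyb for their low level. Promoters came from the RefSeq table of GRCm38.p6. Python 3.11.15 with matplotlib 3.10.9 drew the figures.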

Additional observations from a re-analysis of the deposited data

How the results depend on the processing

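The changes of Rasgrp2, Rassf5, Apbb1ip, Fermt3 and Rap1a in PrePB against ActB and in PB against ActB kept their direction and passed the test in ko and in wt cells under all 13 settings run. The step from PrePB to PB was less stable. There 3 of the 10 genes passed in ko cells, but 5 with quantile normalization, 5 with equal totals and 5 with a replicate block (1 higher, 4 lower), and between 1 and 4 with 1 library left out, whose group is then assumed to vary like the others. In wt cells 3 passed, but 5 with equal totals and 1 without the 3 wt libraries of replicate number 1. The replicate block changed no other count of these genes past 1.5 times. Deviations of same-numbered libraries had r between 0.046 and 0.316 for the populations of a genotype and between -0.110 and -0.047 for ko against wt of a population. Because r was not over 0.1 in every pair, the numbers were not taken to pair the libraries. Yet Xist sets the 3 wt libraries of replicate number 1 apart together. In ko cells Xist was 0.161, 0.233 and 0.389 FPKM in replicate 1 of ActB, PrePB and PB. In replicate 2 it was 0.0195, 0.0151 and 0.0291 FPKM. The main fit treats all libraries as independent. Its p-values between populations of a genotype therefore take no account of a source that libraries of one number may share. Whether they share one was not tested. Equal totals moved the median log2 change of all genes in PB against ActB to -0.27 in ko and -0.38 in wt cells. Under it Ilk in wt cells had -0.22, which is 0.16 above that median, and Rap1b in ko cells had -0.22, which is 0.05 above it, both opposite in sign to the values given. No gene of the 10 passed between ko and wt under any setting. The count over all genes in PB was 45 and became 8 with the compared groups alone, 27 without a filter and 72 with equal totals. With a term for the low-value pattern it became 4, but in PB that term cannot separate pattern from genotype. The depth is unknown, so no limit of detection is given.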

Other observations

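The balance of the 2 tail binders shifted between populations. The ratio of Tln1 to Fermt3 FPKM within a library, which does not depend on library scaling, was 0.439 and 0.534 in ActB ko and 0.516 and 0.411 in ActB wt cells. It was 0.763 and 0.951 in PrePB ko and 0.794 and 0.912 in PrePB wt cells, and 0.850 and 1.12 in PB ko and 0.871 and 0.821 in PB wt cells. All PrePB and PB libraries stood above all ActB libraries. The ratio of Rapgef1 to Rasgrp2 ran from 1.02 to 1.26 over the ActB libraries, and was 17.1 and 30.8 in PB ko and 66.8 and 31.5 in PB wt cells, where the single values of Rasgrp2 were at most 3.24 FPKM. These ratios were computed after the values were seen.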
